A study of Mus musculus with 8 samples.

Results

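Egr1, Egr2, Egr3, Nab1, Nab2, Gfi1 and Id2 are genes of the circuit through which the transcription factor PU.1 sets the choice between monocyte and granulocyte fates. PU.1 binding at these 7 genes, of 21887 protein-coding genes in all, was read from lists of called ChIP-seq (chromatin immunoprecipitation and sequencing) peak summits in AML246 mouse acute myeloid leukaemia cells. Every summit inside a gene's mm10 body, or no more than 10 kb beyond either end, was counted as a site of that gene. By that rule 133 of 365360 summits, in 7 lists, belonged to the 7 genes. Merged across lists at 100 bp, they made 78 of 246675 sites. The outermost counted summit lay 9673 bp outside Nab2, with a score of 10.0 in the library titled Day 12- 12, and the nearest uncounted one lay 10226 bp outside Nab2, with a score of 43.1 at day 12.

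The cells were grown with IL-3, doxycycline (Dox, 0.1 ug/mL) was given from day 0 and taken away on day 12, and viable cells were isolated by flow sorting for the immunoprecipitation. Per the titles, 4 libraries followed PU.1 restoration, from untreated cells (day 0) through 4, 8 and 12 days of Dox, and 3 libraries were titled knockdown Day 12- 4, Day 12- 8 and Day 12- 12. The treatment labels of those 3 differ from the titles: for Day 12- 4 the treatment given is 12 days of Dox and the sorted fraction is Cd11b-high, for Day 12- 8 it is 4 days off Dox and for Day 12- 12 it is 8 days off Dox. Libraries are called by their titles here. How Dox acted on PU.1 in this line was not given in the sources used here.

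There was 1 library for each title, so replicate error is unknown and no test was run. The lists held from 8043 sites at day 0 to 148415 in Day 12- 12, at a sequencing depth that is unknown. The score of a summit is the authors' and was read, from its lowest value, as a −log10 q-value. It describes a peak within its own list and does not measure a change in binding between lists, and a missing call is not a measurement of no binding.

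Egr1, Egr2 and Egr3 are zinc-finger transcription factors, induced within minutes by many stimuli, and in myeloid progenitors they act on the monocyte side. Nab1 and Nab2 are corepressors that bind Egr proteins and, with them, repress granulocyte genes. Gfi1 is a zinc-finger repressor of the granulocyte side that represses monocyte genes, so that the Egr and Gfi1 arms oppose each other. Id2 is a helix-loop-helix protein without a DNA-binding region, which holds E proteins away from DNA.

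In untreated cells, 3 of the 7 genes had a called site, namely Egr1, Egr2 and Nab1, while 36.8% of all protein-coding genes had one. Egr3, Nab2, Gfi1 and Id2 had no day 0 call and did have calls at day 12. This gain of a first called site between untreated cells and day 12 was thus seen for 4 of the 7 genes and for 42.1% of all protein-coding genes. The count was 6 of 7 at day 4, with Nab1 missing, against 69.8% of all genes. It was 7 of 7 at day 8, against 61.7%, and 7 of 7 at day 12, against 77.1%. In the libraries titled knockdown it was 5 of 7 in Day 12- 4, with Egr3 and Nab1 missing, against 34.8%. It was 7 of 7 in Day 12- 8, against 61.8%, and 7 of 7 in Day 12- 12, against 78.9%. Egr1 and Egr2 were the members with a site in every library, as were 17.5% of all protein-coding genes.

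Long lists give most genes a site, so the counts were repeated with each list reduced to its 8043 highest-scoring summits. At day 12 all 7 genes then still had a site, against 35.2% of protein-coding genes, and the lowest score kept was 81.9. For Nab2 that site lay inside the neighbouring gene Stat6. At day 4 only Egr1 kept a site, against 25.5%, and at day 8 Egr1, Egr3, Nab1 and Nab2 did, against 29.2%. In Day 12- 4 the genes with a site were Egr1, Egr2, Nab2 and Gfi1, against 31.0% of all genes. In Day 12- 8 they were Egr1, Egr2, Nab1 and Gfi1, against 37.8%, and in Day 12- 12 they were Egr1, Egr3 and Nab2, against 31.0%. Counting only sites nearest to the gene itself took Nab2 out of 3 of these counts, leaving 6 genes at day 12, 3 at day 8 and 2 in Day 12- 12. With all sites in the windows counted, day 12 was the only library in which the 8043 highest-scoring sites reached all 7 genes. With a score of at least 20 in place of a fixed length, day 12 again had 7 of 7 genes (56.8% of all genes). Day 0 had Nab1 alone (7.8%), day 4 had 4 of 7 (45.9%) and day 8 had 4 of 7 (40.1%). Day 12- 4 had Egr1 alone (12.7%), Day 12- 8 had Egr2 alone (15.6%), and Day 12- 12 had 3 of 7 (30.1%). The windows of the 7 genes ran from 22294 bp at Id2 to 64864 bp at Nab1, and the median window of protein-coding genes was 37169 bp.

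**Figure D1:**
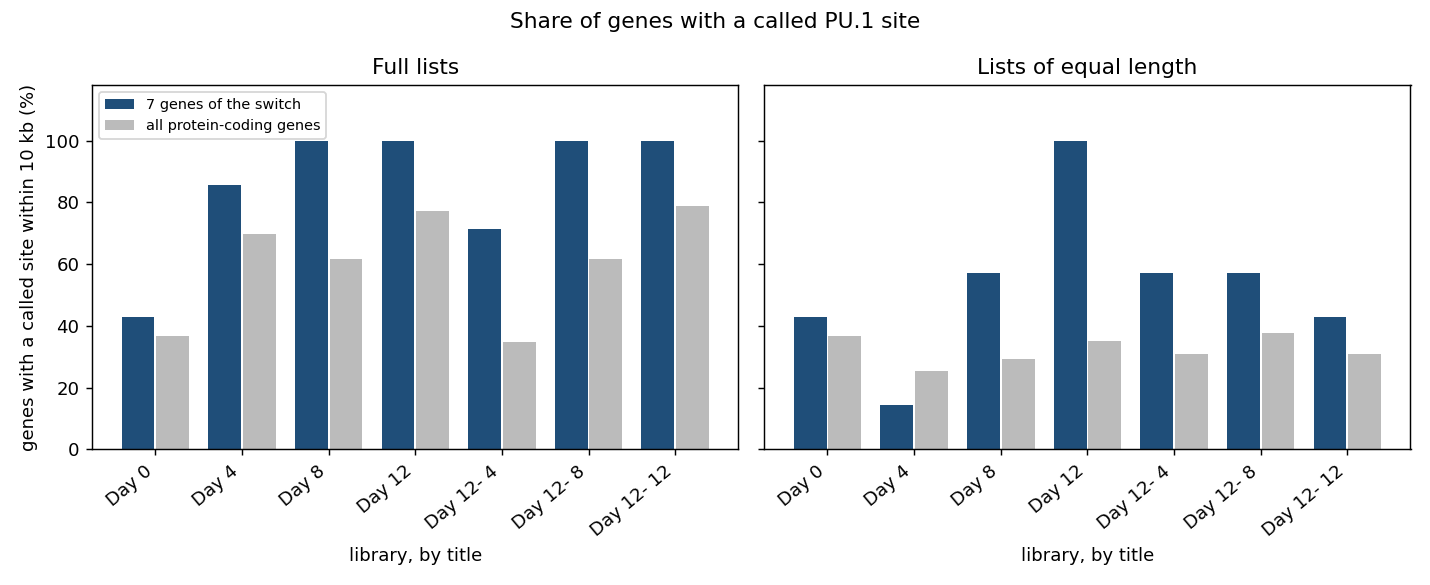
Percentage of the 7 genes (blue) and of all protein-coding genes (grey) with a called PU.1 site in the gene body or within 10 kb, by library title, for the full lists (left) and for the 8043 highest-scoring sites of each list (right). At day 12 all 7 genes had a site in both panels, while the grey bar fell from 77.1 to 35.2%.

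Sequence was at hand for the starts of 5 of the 7 genes, in a RefSeq table of GRCm38.p6 (the mm10 assembly) that gives 250 bases before and 50 after each start, and Egr1 and Egr3 had no entry. Annotated windows of Egr2 and Id2 held called summits, and the Nab1 start lay between 2 called sites, so the 250 bases before a start of each are shown. The Egr2 stretch is chr10:67537619-67537868 (plus strand). It lies inside the longest gene model, before a start at 67537869, and holds the called summit of every library except day 0. The day 12 summit lay 168 bases before that start and 135 bp downstream of another annotated Egr2 start, at 67537566. The Id2 stretch is chr12:25096093-25096342 (minus strand) and holds the summits of day 4, Day 12- 4 and Day 12- 8. The Nab1 stretch is chr1:52500449-52500698 (minus strand). Capitals mark the ETS core GGAA, read on either strand as GGAA or TTCC, in Egr2 and Id2, and the Egr-type motifs GCGTGGG and GCGGGGG, read on either strand, in Nab1.
Egr2: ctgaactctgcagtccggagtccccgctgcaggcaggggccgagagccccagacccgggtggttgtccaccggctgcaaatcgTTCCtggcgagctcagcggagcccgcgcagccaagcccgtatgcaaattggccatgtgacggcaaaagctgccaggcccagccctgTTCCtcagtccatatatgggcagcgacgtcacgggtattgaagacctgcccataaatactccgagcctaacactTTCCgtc
Id2: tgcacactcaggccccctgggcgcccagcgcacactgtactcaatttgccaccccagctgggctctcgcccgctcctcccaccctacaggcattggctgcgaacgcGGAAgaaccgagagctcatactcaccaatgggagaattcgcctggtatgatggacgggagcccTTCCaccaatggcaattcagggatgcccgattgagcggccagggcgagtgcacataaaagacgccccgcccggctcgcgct
Nab1: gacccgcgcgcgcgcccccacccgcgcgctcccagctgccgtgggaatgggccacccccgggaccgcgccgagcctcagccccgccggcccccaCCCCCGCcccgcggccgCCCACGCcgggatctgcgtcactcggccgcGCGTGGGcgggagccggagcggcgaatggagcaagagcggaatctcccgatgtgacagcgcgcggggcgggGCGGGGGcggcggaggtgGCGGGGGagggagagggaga

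PU.1 belongs to the ETS family, whose members recognise a GGAA core. The Egr2 stretch held 3 such cores and the Id2 stretch 2. The core is short, and 96.0% of 32817 RefSeq start windows of the same 300 bases held at least 1. The longer PU.1-type motif GAGGAAG, searched on both strands and containing the core, was in none of the start windows of these 5 genes and in 13.6% of all windows. These counts cover the letters in the windows only.

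The Egr2 day 12 summit lay 1 bp from the core farthest from the start, and the day 8 summit lay 2 bp from the next core. The Egr2 summits of the other 4 libraries lay 15 to 57 bp from a core. The 3 Id2 summits in the printed stretch lay 30 to 54 bp from the nearest core. The Egr2 stretch also held a CArG box, the motif of serum response factor, 72 to 63 bases before the start. This box overlapped none of the marked cores, and 1.63% of all start windows held one. Egr2 had 5 start windows, and that of the start at 67537566, outside the printed stretch, held another match.

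The Nab1 stretch was 80.8% G and C and held 2 matches to GCGTGGG and 3 to GCGGGGG, none overlapping. These motifs were in 5.04% and 10.8% of all start windows, and each was found 1 time in the Nab2 window too. GCGGGGG was also found 1 time in the window of the outer Gfi1 start and in that of the first Egr2 start. The Gfi1-type motif AAATCA was in none of the start windows of the 5 genes and in 14.0% of all windows. The E-box CACCTG, of the kind bound by the E proteins that Id2 holds, was found 1 time, in the window of the outer Gfi1 start, and in 20.2% of all windows. All were searched on both strands.

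Egr1 (chromosome 18, 34861207 to 34864956) was the member with the highest scores. Its leading site lay 4814 bp outside the lower end of the gene (34856393 to 34856450). On days 4, 8 and 12 that site scored 366.7, 283.4 and 566.8, and it scored 57.1 in Day 12- 4 and 266.1 in Day 12- 12. It was not called at day 0 or in Day 12- 8. In the 5 libraries that called it, it was the highest-scoring site of Egr1.

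Set among all genes, the highest score of Egr1 was exceeded by 1.45%, 1.22% and 1.73% of protein-coding genes on days 4, 8 and 12. The share was 4.34% in Day 12- 4 and 1.54% in Day 12- 12. It was 18.3% at day 0 and 27.4% in Day 12- 8, where other, lower-scoring sites led. The rank was thus high in every library that called the site at 4814 bp.

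Closer to Egr1, a site 1203 bp outside the gene (34859933 to 34860038) scored 21.2, 10.3 and 125.2 on days 4, 8 and 12. It scored 11.9 in Day 12- 8 and 17.0 in Day 12- 12. The 2 day 0 calls lay nearer still. One, shared with day 8, was 561 bp outside the gene and scored 10.7, and the other was 82 bp inside and scored 7.65. Neither day 0 nor Day 12- 8 called a site farther out than the one at 1203 bp. A further site, 5771 bp outside (34855263 to 34855448), was called in the same 5 libraries as the leading one, at scores of 4.22 to 16.3.

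Egr3 (chromosome 14, 70077317 to 70082613) had all its 9 sites outside the gene body. The leading one lay 2721 bp outside the lower end (70074527 to 70074596) and scored 41.2, 42.0 and 225.0 on days 4, 8 and 12, and 29.5 in Day 12- 12. It was called in neither day 0, Day 12- 4 nor Day 12- 8. Day 12- 8 called 2 other sites, at 2317 and 1680 bp, with scores of 4.85 and 7.45. A site 522 bp outside the gene was called at day 12, at 79.3, and in Day 12- 12, at 14.0. Day 0 and Day 12- 4 had no call in the Egr3 window.

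Egr2 (chromosome 10, 67534469 to 67542188) differed from both in that its leading site lay inside the gene, in the stretch printed above (67537645 to 67537806). Its scores on days 4, 8 and 12 were 13.3, 18.8 and 159.3. Under the knockdown titles, in order, they were 7.61, 33.4 and 17.2. Merged at 100 bp, this was the site called in the largest number of libraries among all 78, at 6 of 7, and day 0 alone lacked it. A merging distance of 200 bp would join the Id2 sites 198 and 359 bp upstream of its start, which together cover the same 6 libraries. In Day 12- 8 the Egr2 score was the highest of the 7 genes, and 9.02% of protein-coding genes had a higher one, against 22.5% at day 12. A gene without a call cannot exceed a score, so that share depends on list length. Within its own list the Egr2 score stood above 93.8% of sites in Day 12- 8 and above 95.0% at day 12.

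The day 0 calls in the Egr2 window lay elsewhere. One was 13 bp downstream of the start at 67535499, with a score of 8.62, and was called in no other library. The other scored 8.68 and lay in Ado, the neighbouring gene for a thiol dioxygenase, 6590 bp outside Egr2 (67548778 to 67548955). Days 8 and 12 and Day 12- 8 called it too. A site 707 bp downstream of the same Egr2 start scored 6.25 on day 8, 41.4 on day 12 and 7.78 in Day 12- 8.

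**Figure D2:**
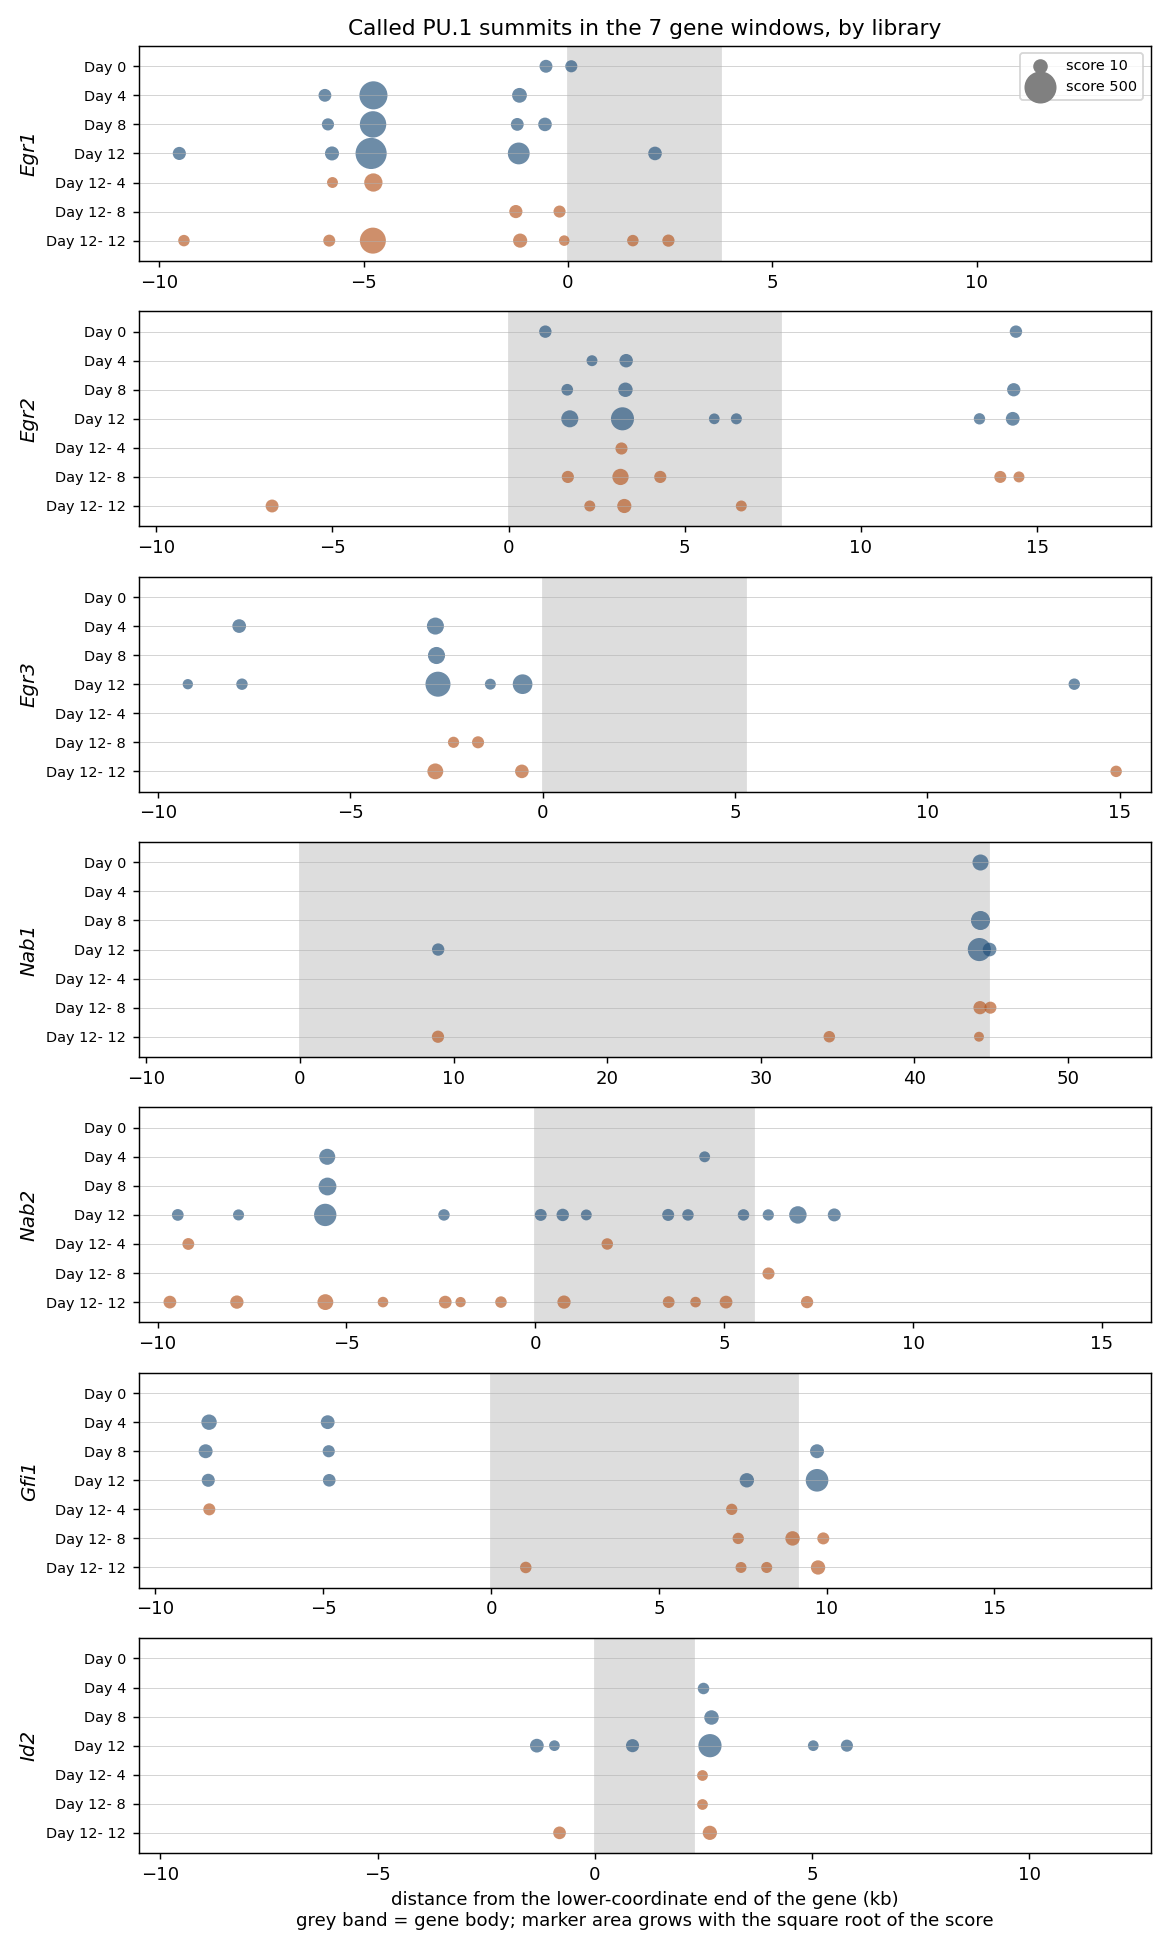
Called PU.1 summits of each library (rows, by title) in the windows of the 7 genes, placed by distance in kb from the end of the gene with the lower coordinate. Grey bands are gene bodies, blue marks restoration libraries, orange marks libraries titled knockdown, and marker area grows with the square root of the score. At day 12 the highest-scoring summits of Egr1, Egr3 and Nab2 lay below the gene body, and those of Nab1, Gfi1 and Id2 lay close to the end with the higher coordinate.

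Of the corepressor genes, Nab1 (chromosome 1, 52455849 to 52500712) had 4 sites in the longest window of the 7 genes. Its leading site lay 378 bp downstream of the start (52500048 to 52500120). Its scores were 31.2, 68.7 and 160.1 on days 0, 8 and 12, with 12.1 in Day 12- 8 and 2.3 in Day 12- 12. The libraries of day 4 and Day 12- 4 called nothing in the window. Nab1 thus had the highest day 0 score of the 7 genes, exceeded by 4.73% of protein-coding genes, and was the one gene of the 7 with no day 4 call.

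Another Nab1 site, 289 bp upstream of the start, scored 14.2 at day 12 and 7.46 in Day 12- 8. The other 2 lay far inside the gene, 10143 and 35603 bp downstream of the start, with scores of 5.65 to 8.43. The sites near the start were called in day 0, day 8, day 12 and the knockdown-titled libraries other than Day 12- 4.

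Nab2 (chromosome 10, 127660918 to 127666703) had 23 sites, the most of the 7 genes. Of these, 17 were called in a single library, a share near the 73.0% of all sites. Stat6, the gene of a cytokine-activated transcription factor, overlaps its lower end, and 9 of the 23 sites were nearest to Stat6. They include the leading site of the window, 5561 bp outside Nab2 (127655357 to 127655410). That site scored 31.2, 50.7 and 138.8 on days 4, 8 and 12 and 29.4 in Day 12- 12, and the other 3 libraries did not call it. Whether a site there acts on Nab2 or Stat6 was not tested.

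Of the sites nearest to Nab2, the highest lay 1166 bp upstream of the start and was called at day 12 alone, at 46.2. The others scored from 3.58 to 12.2. Day 12 called 13 summits in the Nab2 window and Day 12- 12 called 12, while each other library called 2 or fewer. The list lengths of those 2 libraries, 86271 and 148415, were also the longest. A site 362 bp upstream of the start was called in Day 12- 8, at 7.46, and at day 12, at 5.04.

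Gfi1 (chromosome 5, 107716655 to 107725805) had sites near its starts and beyond its lower, downstream end, and 1 more inside the gene, 1035 bp from that end, called in Day 12- 12 alone at 5.73. The leading site lay 564 bp upstream of the outer start (107726368 to 107726399) and scored 15.9 on day 8, 146.2 on day 12 and 18.0 in Day 12- 12. Day 4 did not call it. The 2 sites beyond the downstream end, 8402 and 4867 bp outside the gene, had day 4 scores of 25.8 and 15.1. On day 8 these were 15.8 and 7.68, and on day 12 they were 11.3 and 9.52. The first was also called in Day 12- 4, at 7.23, and neither was called in Day 12- 8 or Day 12- 12. Day 4 had these 2 sites and no other in the window.

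In Day 12- 8 the Gfi1 calls took other positions, 165 bp downstream of the outer start at 19.0, 750 bp upstream of it at 7.23 and 322 bp downstream of the inner start at 5.25. The Gfi1 score in that library was exceeded by 16.5% of protein-coding genes, against 24.0% at day 12 and 44.2% at day 8. These shares depend on list length. Within its own list the highest Gfi1 score stood above 87.8% of sites in Day 12- 8, 94.5% at day 12 and 53.6% at day 8. Gfi1 had no call at day 0.

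Id2 (chromosome 12, 25093799 to 25096092) had no call at day 0 and a single call at days 4 and 8 and in Day 12- 4 and Day 12- 8. Its leading site lay 359 bp upstream of the start (25096448 to 25096467) and scored 19.1 on day 8, 163.3 on day 12 and 17.5 in Day 12- 12. The other 3 libraries with a call placed it nearer the start, at 174 to 198 bp in the stretch printed above (25096266 to 25096290). Their scores were low, with 5.71 on day 4, 3.9 in Day 12- 4 and 3.83 in Day 12- 8. The positions at 359 bp and at 174 to 198 bp were not called together in any library. Whether they belong to separate peaks was not tested. Day 12 called 5 more sites around Id2, all at scores of 3.75 to 14.7 and in no other library.

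**Figure D3:**
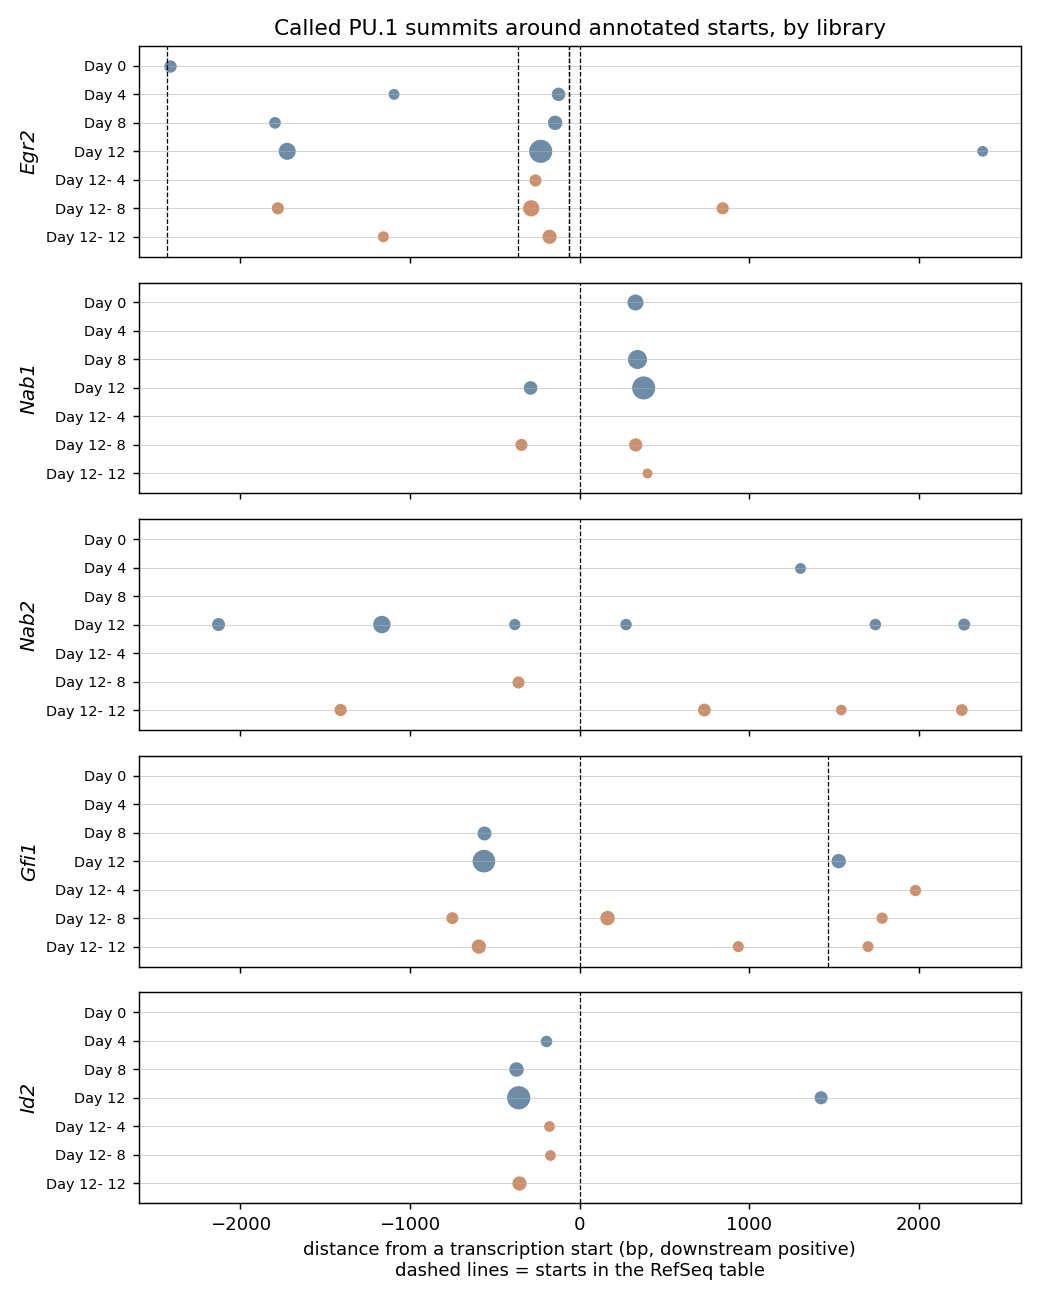
Called PU.1 summits within 2.5 kb of the starts of the 5 genes with a start in the RefSeq table, in bp from a start with downstream positive. Dashed lines are annotated starts, rows are libraries by title, blue marks restoration, orange marks knockdown titles, and marker area grows with the square root of the score. Id2 had 2 positions upstream of the start and a day 12 summit 1424 bp downstream of it, and the Nab1 summits lie on either side of the start.

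Over these 5 genes, 2 of 3 day 0 summits and 10 of 12 summits of Day 12- 8 lay within 1 kb of the gene's own start. On days 4, 8 and 12 the counts were 3 of 7, 5 of 9 and 9 of 32. It was 3 of 6 in Day 12- 4 and 8 of 25 in Day 12- 12. Over the whole lists the share within 1 kb of any start in the table was 57.6% at day 0, 40.9% in Day 12- 8 and 7.88 to 28.6% in the others. Day 0 and Day 12- 8 thus had the highest shares both at the 5 genes and over whole lists.

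Side by side, the highest scores of the 7 genes at day 12 ran from 138.8 at Nab2 to 225.0 at Egr3, apart from Egr1 at 566.8. Their median was 160.1, and that of all protein-coding genes, with 0 for a gene without a site, was 33.4. All 7 genes had a day 12 site, and the median of protein-coding genes with one was 67.1. At day 12 each of the 6 genes other than Egr1 was exceeded by 16.0 to 24.9% of protein-coding genes. At day 4 the 6 genes with a site spread from 5.71 at Id2 to 366.7 at Egr1. In Day 12- 8, where Egr1 lacked its leading site, the scores ran from 3.83 at Id2 to 33.4 at Egr2.

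**Figure D4:**
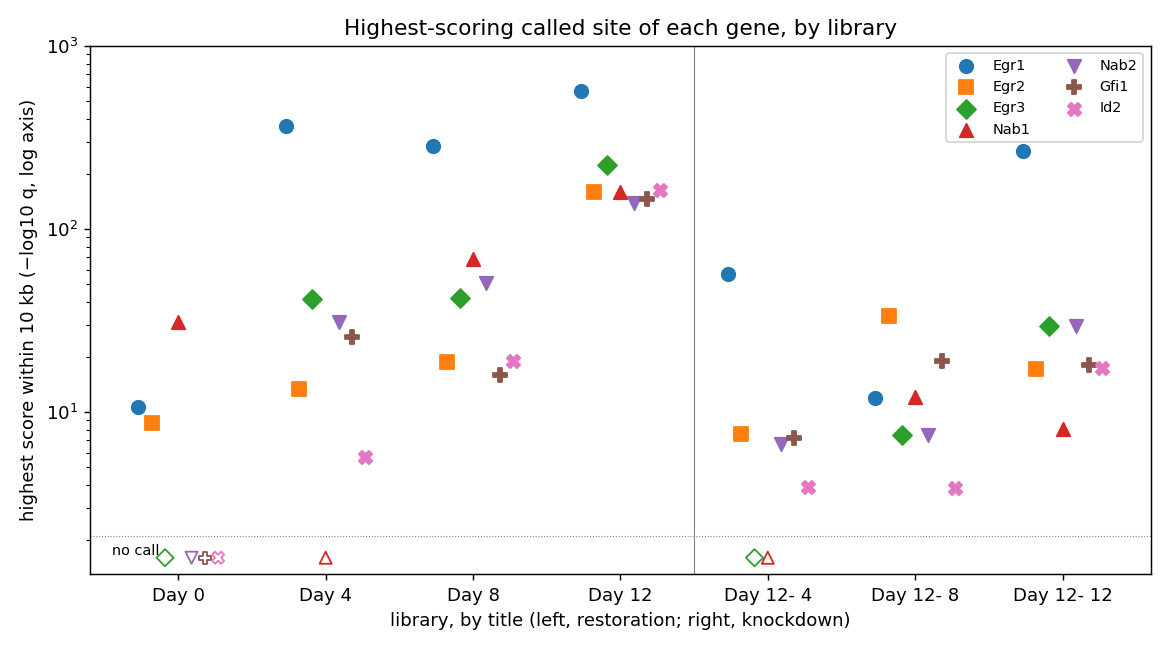
Highest score (−log10 q, log axis) of any called summit within 10 kb of each gene, by library title, with filled symbols for called sites and open symbols at the bottom for genes with no call. Egr1 lies above the other genes at days 4, 8 and 12, in Day 12- 4 and in Day 12- 12, and not at day 0 or in Day 12- 8. Scores of different libraries are not on a common scale.

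Taking the 78 sites as a whole, none was called in all 7 libraries, and 0.379% of all sites were. A single library called 52 of them (66.7%, against 73.0% of all sites), and 9 (11.5%, against 6.08%) were called in 4 or more. Of the 9, 3 belonged to Egr1, 2 to Egr2 and 1 each to Egr3, Nab1, Nab2 and Gfi1. Sites called at day 12 at all numbered 43 (55.1%, against 35.0%). Those called at day 12 and not at day 0 numbered 41 (52.6%, against 33.7%), nearly all of the 43. With lists of equal length the 7 genes kept 17 sites of 27522, of which 11 were called in a single library (64.7%, against 58.2%) and 2 in 4 or more (11.8%, against 18.3%). Of the 17, 8 were called at day 12 at all (47.1%, against 29.2%) and 7 at day 12 and not at day 0 (41.2%, against 22.7%). In the full lists, the 5 day 0 sites included 2 that were called at day 12, 3 called at day 8 and none called at day 4. Of all 8043 day 0 sites, 3216 were called at day 12, 3250 (40.4%) at day 8 and 1593 (19.8%) at day 4. With 5 sites, these counts do not set the 7 genes apart.

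Among these 41 sites gained by day 12, Day 12- 4 called 4 (9.76%, against 7.19% over all such sites), Day 12- 8 called 5 (12.2%, against 6.67%) and Day 12- 12 called 14 (34.1%, against 47.0%). Those 4 sites of Day 12- 4 were the leading Egr1 and Egr2 sites, the Egr1 site at 5771 bp and the Gfi1 site at 8402 bp. Sites called at day 12 and in no library titled knockdown numbered 23 (29.5%, against 16.8% of all sites). Leaving out Day 12- 12, the longest list, can only raise that count, for any set of sites. It was then 33, and the matching share of all sites was not computed. Sites called in a knockdown-titled library and in no restoration library numbered 29 (37.2%, against 46.7%). With lists of equal length, Day 12- 4 and Day 12- 8 each called 2 of the 7 sites gained by day 12 (28.6%, against 44.2% and 22.6% over all such sites), and Day 12- 12 called 3 (42.9%, against 64.3%). In those lists 2 of the 17 sites were called at day 12 and in no library titled knockdown (11.8%, against 6.06% of all sites), and 5 in a knockdown-titled library and no restoration library (29.4%, against 27.4%). Between the full and the equal lists the 7 genes changed sides of all sites in the share called in a single library, in 4 or more libraries and in knockdown titles without restoration, and in the share of gained sites called in Day 12- 4.

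The other genes of the circuit, 37 in 6 lists, had a site in 19 cases in untreated cells and in 33, 32 and 35 on days 4, 8 and 12. The shares of all protein-coding genes in those libraries were 36.8, 69.8, 61.7 and 77.1%. Under the knockdown titles, in order, there were 23, 32 and 35, against 34.8, 61.8 and 78.9% of all genes. The counts for single lists that follow stand beside the same 36.8% at day 0 and 77.1% at day 12. At day 12 and not at day 0 a site was called for 18 of 37, near the 42.1% of all protein-coding genes. The reverse, a call lost between untreated cells and day 12, was seen for 2, Klf4 and Egr4, and for 1.76% of all genes.

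Among monocyte-side genes, 3 of 6 had a site at day 0 and 5 of 6 at day 12, and Spi1, which encodes PU.1, and Csf1r, the macrophage growth factor receptor, had the highest day 12 scores, 673.8 and 307.5. Among granulocyte-side genes 1 of 6 had a day 0 site and 6 of 6 a day 12 site. There Cebpe, a late granulocytic factor, scored 407.6 at day 12 and Elane, neutrophil elastase, 168.9. The median of the highest day 12 scores was 104.3 for the monocyte list and 79.3 for the granulocyte list.

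The 10 genes made up of Egr4 and immediate-early genes with their activators had a day 0 site in 9 cases, led at day 12 by Fosb at 826.9 and Ier2 at 486.4. Egr4, the remaining Egr gene, had 3 sites in untreated cells (highest 14.9), 1 on day 4 (3.04) and none on days 8 or 12 or in Day 12- 4. It had 3 sites in Day 12- 8 (7.39) and 2 in Day 12- 12 (11.5).

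Of Gfi1b and the partners through which Gfi1 represses, 3 of 7 had a day 0 site and 7 of 7 a day 12 site. Gfi1b, the erythroid and megakaryocytic relative of Gfi1, scored 444.7 at day 12, and Zbtb17, which encodes the Gfi1-binding factor Miz-1, scored 274.0. The 3 with a day 0 site were Hdac1 (13.4), Hdac2 (3.8) and Zbtb17 (13.8). Hdac1 scored 116.2 and Hdac2 10.7 at day 12. Kdm1a and Rcor1, of the demethylase complex that Gfi1 recruits, lacked a call in untreated cells, which 36.8% of all protein-coding genes had. Their day 12 scores were 12.0 and 15.2. Chd3 and Chd4, helicases of the NuRD complex with which Nab proteins work, likewise lacked a day 0 call, and their day 12 scores were 246.2 and 572.4. Of the Id relatives and E proteins, 3 of 6 had a day 0 site and 6 of 6 a day 12 site. The highest day 12 scores were those of Id3 (390.9) and Id1 (337.4), which like Id2 had no day 0 call. Of the genes named here by a day 12 score, Cebpe, Elane, Fosb, Zbtb17, Rcor1, Chd4, Id1 and Id3 had that site outside the gene body. Spi1, Csf1r, Ier2, Gfi1b, Kdm1a, Hdac1, Hdac2 and Chd3 had it inside. The Zbtb17 site, at 141477879 on chromosome 4, lay near the 10 kb limit, since the gene ends at 141467937. Whether the outside sites act on these genes or on neighbouring ones was not tested.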

How the data were processed

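PU.1 ChIP-seq was analysed in 7 of 8 labelled samples; the sample labelled 12 days off Dox was not analysed here. The authors deposited 1 list of peak summits per sample, made with MACS2 on mm10 per the submitters' processing notes. The deposited score was read as a −log10 q-value, since the lowest, 1.30104, lies just above 1.30103, the value of q = 0.05. Aligner, control, depth and any pooling of libraries are not given in the sources used here.

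Genes came from a RefSeq table of GRCm38.p6, mitochondrial genes left out, and start windows from a RefSeq promoter table. Both hold the 7 genes except that the promoter table has no Egr1 or Egr3. Summits were counted in the body plus 10 kb and merged across lists by single linkage at 100 bp. A gene's leading site is that of its highest score, at its top summit. Window counting and merging were tested on simulated data. No exons or introns were assigned. Python 3.11.15, numpy 2.4.6, pandas 2.3.3 and matplotlib 3.10.9 were used. All 7 genes are named, with the 2 highest day 12 scores of each other list and genes with no site anywhere (none). Klf4, Egr4, Kdm1a, Rcor1, Hdac1 and Hdac2 were named after their values were seen. Members and lists were chosen with earlier results of these data known. Alternatives were other windows, score minimums, merging distances, list lengths and library groupings.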

Additional observations from a re-analysis of the deposited data

How the results depend on the processing

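No paired analysis was possible because each time point had 1 library and no test was run. Of 117 alternative values, 69 stayed within 1.5 times the reported one and 48 did not, and the causes were not tested beyond what each construction sets. Among these alternatives, shares of all protein-coding genes were not computed for other windows or a score of at least 10. Shares of all sites were computed with lists of equal length alone. Counts without such a share describe the setting and do not set the 7 genes apart. With the gene body only, the genes with a site fell to 2 on days 4 and 8 and to 3 in both Day 12- 4 and Day 12- 8. All sites then numbered 32, those at day 12 and not day 0 14, and those at day 12 and in no knockdown title 9. Summits over the 7 lists were then 4 for Egr1, 0 for Egr3, 12 for Nab2, 7 for Gfi1 and 1 for Id2, and within 5 kb Egr3 had 9. Within 50 kb they were 62 for Egr1, 51 for Egr2, 67 for Egr3, 87 for Nab2 and 44 for Gfi1. That window gave 5 genes with a day 0 site, 207 sites, 1 called in all 7 libraries, 85 at day 12 and not day 0, and 47 at day 12 and in no knockdown title.

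With a score of at least 10, 1 gene had a site in Day 12- 4 and 4 in Day 12- 8, and the 3 site counts were 32, 20 and 12. With at least 20, the genes numbered 1 at day 0, 4 on day 8, 3 in Day 12- 12 and 1 in each of Day 12- 4 and Day 12- 8, and the site counts were 12, 10 and 7. With lists of equal length, they numbered 1 on day 4, 4 on day 8 and in Day 12- 8, and 3 in Day 12- 12, and the site counts were 17, 7 and 2. Merged at 500 bp, 12 sites were called at day 12 and in no knockdown title, and by treatment label that count was 24. Day 12 kept 7 of 7 genes at both score minimums and with equal lists. Counting only sites nearest to the gene, like its repeat with equal lists chosen after seeing the data, changed day 8 to 6 genes in the full lists and no other library. With that count and equal lists together, 1 gene had a site on day 4, 3 on day 8, 6 on day 12, 4 in Day 12- 8 and 2 in Day 12- 12. Weak calls and depth limit what a missing call can show.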

Other observations

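Beyond the 10 kb windows, a site 28617 bp below the downstream end of Gfi1 (chromosome 5, 107688038 to 107688105) was called in all 7 libraries, the single such site within 50 kb of any of the 7 genes. It scored 303.8 at day 12 and 22.6 at day 0, and its nearest protein-coding gene was Rpap2, 26185 bp away.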
